A study of Mus musculus with 3 samples.

Results

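The genes described here belong to the interferon response and to the loading of peptides onto MHC class I molecules. They were chosen by name, as a list of 39 genes of viral nucleic acid sensing, interferon signalling, interferon-induced defence and antigen presentation, and their transcripts were summed per gene symbol. The tables hold 38 of the 39 among 24006 gene symbols. Mx2 was not found by its symbol and was skipped. Polyadenylated RNA was sequenced from mouse embryonic stem cells (ESCs), cultured pluripotent cells derived from the early embryo, with 1 library from each of 3 genotypes: wildtype, DAXX-/- and ATRX-/-. All 3 lines were male, isogenic, of the background C57BL/6x129sV and obtained through CRISPR targeting, and each is 1 clone. All grew in serum with leukaemia inhibitory factor and had been passaged off irradiated feeder cells onto gelatin. The position of the targeted change in either gene is not given in the sources used here. ATRX remodels chromatin and DAXX is its histone chaperone partner. Together they place the histone variant H3.3 at heterochromatin and at endogenous retroviruses.

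Interferons are secreted proteins that warn cells of viral infection. Sensors of foreign RNA and DNA signal through adaptors to IRF transcription factors, which switch on interferon genes. Secreted type I interferon binds the IFNAR receptor, and the resulting complex of STAT proteins with IRF9 binds the interferon-stimulated response element (ISRE) in front of a large set of effector genes. STAT dimers bind a second element, GAS, which serves mainly interferon gamma, a strong inducer of class I antigen presentation. Pluripotent cells are known for a weak interferon response, with low interferon production and a few effectors, such as the IFITM proteins, kept on without interferon.

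The wildtype library held 13981915 reads on transcripts, the DAXX-/- library 11224100 and the ATRX-/- library 13988376, of which the members took 12796, 11239 and 12021. Where 3 values follow each other without labels, they are in this order. A single read was worth 0.0689, 0.0916 and 0.0722 CPM, the count scaled by effective library size. The gene Atrx had 4582, 3576 and 1800 reads and Daxx had 1125, 623 and 972, so that either gene had its lowest level in its own knockout. With 1 library per genotype there is no replicate check and no test. Intervals in parentheses after a log2 fold are exact 95% counting intervals. They cover counting error only, take every read as independent, which PCR copies are not, and compare libraries, not genotypes. A gene is said to have risen or fallen when its whole interval lay beyond 2-fold and it reached 1 CPM in at least 1 of the 2 libraries compared. A difference between genotypes and a difference between clones cannot be told apart, nor can fewer cells of a type and less RNA per cell. Both knockouts are set against the same wildtype library.

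The members fell into silent and expressed genes. Of the 38 found, 9 had at most 3 reads in every library, and these include textbook products of an ongoing interferon response. Usp18, the protease that removes ISG15 from proteins, and Mx1, an antiviral GTPase, had 0 reads in all 3 libraries. Isg15, the ubiquitin-like modifier, had 3 reads in wildtype, 0 in DAXX-/- and 0 in ATRX-/-. Ifit1, which binds foreign RNA ends, had 1, 1 and 0 reads, and Ifit3, its partner, had 0, 0 and 2. Rsad2, the antiviral enzyme viperin, had 1, 3 and 1 reads, and the RNA-degrading Isg20 had 1, 0 and 1. The sensor Ifih1 had 2, 0 and 0 reads, and Irf7, the factor that amplifies interferon production, had 2, 0 and 2. None of these 9 can be compared between libraries at this depth, and none reached 1 CPM in a knockout. Of 21 interferon genes listed as ligands, 20 had 0 reads in every library, including Ifnb1 and Ifng, and Ifnz had 2 reads in the ATRX-/- clone and 0 in the others.

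The expressed members spanned a wide range of levels. Scaled by transcript length as well as depth (RPKM), Ifitm2 was the most abundant member, with 288, 417 and 339. Ifitm3 had 86.6, 229 and 127 RPKM, and Ifitm1 had 68.8, 98.2 and 63.1. These membrane proteins, which block the entry of enveloped viruses, held the top 3 places in each library. They were followed by Trim25, a ubiquitin ligase of RNA sensing, with 40.9, 40.6 and 37.0 RPKM. Bst2, the tether that holds budding virions at the cell surface, had 33.0, 14.9 and 25.5 RPKM. At the low end, the peptide transporter genes Tap1 and Tap2 stood at 1.70 and 0.500 RPKM in wildtype, far under B2m, the invariant light chain of class I molecules, at 15.9 RPKM.

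**Figure D1:**
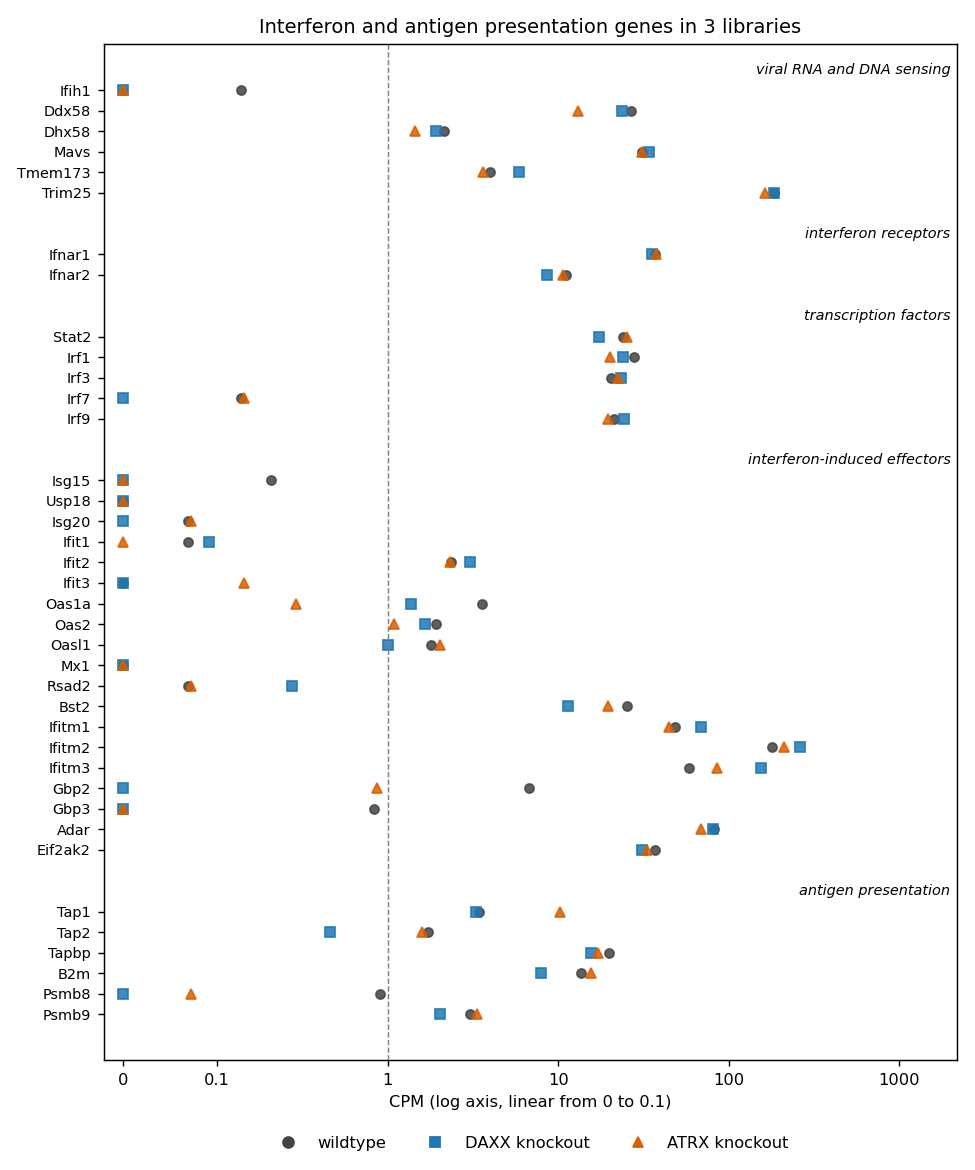
Level of each of the 38 members in CPM (log axis, linear from 0 to 0.1) in wildtype (circles), DAXX-/- (squares) and ATRX-/- (triangles), grouped by role; the dashed line marks 1 CPM. The 9 members with at most 3 reads lie left of the dashed line in all 3 libraries, and Ifitm2 and Trim25 lie furthest to the right.

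Silent and expressed members shared motifs in their promoters. RefSeq promoters (GRCm38.p6, 250 bases before to 50 after the start) were found for 32 members and were searched on both strands for the ISRE letters, GAAA repeated after a gap of any 2 bases. The letters occurred in 15 of 40 member promoters (37.5%), which belong to 15 genes, and in 3.44% of all 32851 promoters. The GAS letters TTCNNNGAA occurred in 11 of 40 (27.5%) and in 8.3% of all. A GAS match overlapped an ISRE match in the promoters of Bst2 and Ifitm3. Matches are shown 5′ to 3′ on the gene's strand with the ISRE letters in capitals, so that a match on the other strand reads TTTC and TTTC. The nearly silent genes Isg15 (chr4:156200865-156200906, minus strand), Ifit1 (chr19:34640775-34640823, plus) and Rsad2 (chr12:26456553-26456582, minus) are set beside genes that fell, Gbp2 (chr3:142620594-142620623, plus) and Oas1a (chr5:120907526-120907555, minus). The expressed genes are Ifitm2 (chr7:140955988-140956017, minus), Bst2 (chr8:71537577-71537612, minus), B2m (chr2:122147538-122147567, plus) and Stat2 (chr10:128270266-128270295, plus).
Isg15: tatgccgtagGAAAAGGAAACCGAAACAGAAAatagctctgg
Ifit1: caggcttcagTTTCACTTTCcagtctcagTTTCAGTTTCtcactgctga
Rsad2: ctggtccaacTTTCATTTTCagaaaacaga
Gbp2: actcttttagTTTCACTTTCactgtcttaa
Oas1a: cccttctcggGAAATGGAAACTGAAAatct
Ifitm2: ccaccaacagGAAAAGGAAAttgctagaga
Bst2: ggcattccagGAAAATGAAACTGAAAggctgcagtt
B2m: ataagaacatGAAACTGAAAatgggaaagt
Stat2: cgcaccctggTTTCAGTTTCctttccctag
The same 10 letters, GAAAAGGAAA, occurred in front of Isg15, with at most 3 reads, and in front of Ifitm2, with at least 2622. The letters thus accompanied members at both ends of the range of levels, and a match is a description and not a bound site. Tap1, Psmb9 and Tapbp had neither motif in this window. For Psmb9 the RefSeq start (34187330) lies inside the counted transcript, which starts at 34187764 on the minus strand. The promoter at that counted start was therefore not searched. RefSeq starts of other members may also differ from those of GENCODE M21, which was used for gene positions.

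In the DAXX-/- clone, 1 of the 27 members tested rose (Ifitm3) and 1 fell (Gbp2). Over all 13151 genes tested, 0.487% rose and 1.55% fell. Over the 27 members whose mean reached 1 CPM, the median log2 fold was -0.17 (0.03 over all 12759 such genes), and 19 of the 27 lay below 0 (46.0% of all genes). That median is the same with Gbp2 at its bound. A milder rule, chosen after the values were seen, asks only that the whole interval lie on one side of 0. By it, 8 members were lower (29.6%, against 17.1% of all genes tested) and 4 were higher (14.8%, against 23.7%). The median by role was -0.57 for 5 antigen presentation genes, -0.22 for 11 effectors, -0.21 for 2 receptor genes, -0.02 for 4 transcription factors and -0.00 for 5 sensing genes.

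In the ATRX-/- clone, 1 of 27 members tested rose (Tap1) and 2 fell (Gbp2 and Oas1a). Over all 13230 genes tested, 0.695% rose and 1.15% fell. The members' median was -0.10 (0.02 over all genes), and 17 of 27 lay below 0 (47.3% of all genes). By the milder rule, 7 members were lower (25.9%, against 21.3% of all genes tested) and 3 were higher (11.1%, against 25.4%). The median by role was 0.13 for antigen presentation, -0.15 for effectors, -0.02 for the receptors, -0.01 for transcription factors and -0.17 for sensing.

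Set against each other, the ATRX-/- clone was higher than the DAXX-/- clone in 1 of 26 members tested (Tap1) and lower in 0. Over all 12991 genes tested, 0.77% were higher and 0.362% lower. By the milder rule, 5 members were higher in the ATRX-/- clone (19.2%, against 20.7% of all genes tested) and 10 were lower (38.5%, against 20.9%). The 5 higher were B2m, Bst2, Stat2, Tap1 and Tap2. The 10 lower were Adar, Ddx58, Ifitm1, Ifitm2, Ifitm3, Irf1, Irf9, Oas1a, Tmem173 and Trim25. The antigen presentation genes had a median of 0.97, with 5 of 5 above 0, and the sensing genes one of -0.39, with 0 of 5 above 0.

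**Figure D2:**
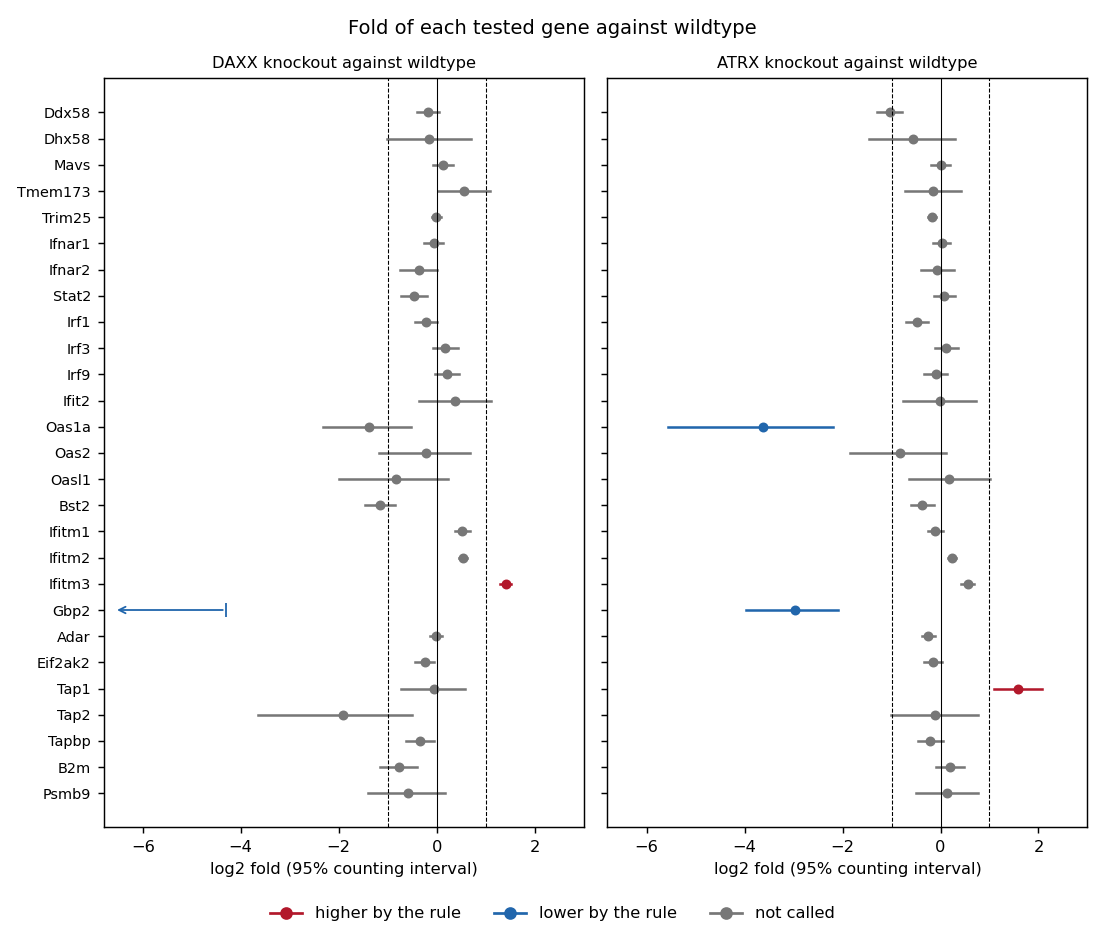
log2 fold of the 27 tested members in the DAXX-/- clone (left) and the ATRX-/- clone (right) against the same wildtype library; points are folds, lines 95% counting intervals, an arrow marks a gene with 0 reads in the knockout, and dashed lines mark 2-fold. Ifitm3 and Gbp2 pass the rule on the left, and Tap1, Gbp2 and Oas1a on the right.

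Among the sensing genes, Ddx58, which encodes the RNA sensor RIG-I, differed most from wildtype in the ATRX-/- clone. It had 387 reads in wildtype, 258 in DAXX-/- and 180 in ATRX-/-. The ATRX-/- clone stood apart from the other libraries, with a log2 fold of -1.04 (-1.30 to -0.78) against wildtype and -0.86 (-1.14 to -0.58) against the DAXX-/- clone, while the DAXX-/- clone gave -0.17 (-0.41 to 0.06). The interval in the ATRX-/- clone reached inside 2-fold, so the gene did not pass the rule. Dhx58, a related helicase that tunes RIG-I signalling, had 31, 21 and 20 reads, and its exons overlap the antisense gene Dhx58os, whose reads may be mixed with its own since no use of strand is stated. Trim25 had 2673, 2006 and 2266 reads, with -0.00 (-0.09 to 0.08) in the DAXX-/- clone and -0.17 (-0.25 to -0.09) in the ATRX-/- clone. Mavs, the mitochondrial adaptor of RNA sensing, had 450, 370 and 430 reads, and its log2 folds were 0.13 and 0.00. Tmem173, which encodes STING, the adaptor of DNA sensing, had 58, 64 and 50 reads, a log2 fold of 0.55 (0.02 to 1.09) in the DAXX-/- clone and -0.15 (-0.72 to 0.42) in the ATRX-/- clone.

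Neither receptor subunit differed from wildtype by the milder rule in either knockout. Ifnar1 had 535, 387 and 518 reads in wildtype, the DAXX-/- clone and the ATRX-/- clone, and its log2 folds were -0.06 and 0.02. Ifnar2 had 161, 94 and 147 reads, with -0.37 (-0.75 to 0.01) and -0.06. With its most abundant transcript alone, Ifnar2 was at -0.71 in the DAXX-/- clone. Of the transcription factors, Stat2, the partner of IRF9 in the interferon-activated complex, had 347, 189 and 349 reads. It was lower in the DAXX-/- clone alone, at -0.47 (-0.73 to -0.21), and differed between the knockouts by 0.54 (0.28 to 0.81). Irf1, which acts downstream of interferon gamma, had 407, 263 and 277 reads, with -0.22 (-0.45 to 0.01) in the DAXX-/- clone and -0.49 (-0.71 to -0.26) in the ATRX-/- clone. Irf3, the factor activated by the sensors, had 298, 254 and 309 reads, and Irf9 had 307, 267 and 273. Their log2 folds lay between -0.10 and 0.21, and Irf9 shares exon sequence with Rnf31 on the same strand.

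The effectors held the largest falls among the members, those of Gbp2 and Oas1a, and 1 rise, that of Ifitm3. The 3 Ifitm genes lie within 55.9 kb of chromosome 7 (140954837 to 141010770, GRCm38). Ifitm3 had 852 reads in wildtype, 1698 in DAXX-/- and 1191 in ATRX-/-. It rose by 1.41 (1.29 to 1.53) on the log2 scale in the DAXX-/- clone and stood at 0.55 (0.42 to 0.68) in the ATRX-/- clone, between the other libraries. Ifitm2 had 2622 reads in wildtype, 2858 in DAXX-/- and 2940 in ATRX-/-, with the same order of levels, at 0.53 (0.46 to 0.61) and 0.23 (0.16 to 0.31). Ifitm1 had 699 reads in wildtype, 757 in DAXX-/- and 620 in ATRX-/- and gave 0.53 (0.37 to 0.68) in the DAXX-/- clone and -0.11 (-0.26 to 0.05) in the ATRX-/- clone. All 3 were highest in the DAXX-/- clone, and the size of the difference was unequal along the cluster. The summed CPM of all effectors, which includes these abundant genes, was 449, 618 and 472. It was highest in the DAXX-/- clone although 7 of the 11 measured effectors lay below 0 there. Of the 50-base words of Ifitm3, 5.56% also occur in another gene's transcripts, with 3.3% for Ifitm2 and 1.42% for Ifitm1.

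Gbp2, an interferon-induced GTPase that attacks the vacuoles of intracellular pathogens, lies on chromosome 3 (142620602 to 142638008). By this GENCODE M21 start its ISRE letters (142620604 to 142620613) lie just inside the gene, and by the RefSeq start they lie before it. Gbp2 had 98 reads in wildtype, 0 in DAXX-/- and 12 in ATRX-/-. The level in the DAXX-/- clone was at least 24.6-fold lower against a floor of 3 reads in that library, and in the ATRX-/- clone Gbp2 fell by 2.96 (-3.96 to -2.09) on the log2 scale. Gbp3, its neighbour within 78.0 kb, had 12 reads in wildtype and 0 in each knockout, too few for the rule. Gbp2b, a close relative looked up after the values of Gbp2 were seen, had 53, 1 and 5 reads, which is the same order. Of the 50-base words of Gbp2, 2.07% also occur elsewhere, mostly in Gbp2b.

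Oas1a encodes an oligoadenylate synthetase, which on binding double-stranded RNA makes the messenger that activates RNase L. It had 52 reads in wildtype, 15 in DAXX-/- and 4 in ATRX-/-. It fell by 3.63 (-5.56 to -2.19) in the ATRX-/- clone, stood at -1.38 (-2.32 to -0.53) in the DAXX-/- clone, and differed between the knockouts by -2.25 (-4.30 to -0.60). Of its 50-base words, 57.6% also occur in other transcripts, mostly those of Oas1g, so that the level of either gene is uncertain. The reads of the pair together numbered 113, 33 and 9, with log2 folds of -1.37 (-1.97 to -0.79) and -3.58 (-4.75 to -2.61). If reads that match both genes were counted on each, this sum repeats them and its intervals are too narrow. The related Oas2 had 28, 18 and 15 reads and Oasl1 had 26, 11 and 28, and neither passed the rule.

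Bst2 had 366 reads in wildtype, 124 in DAXX-/- and 270 in ATRX-/-. All 3 libraries were separated, with -1.15 (-1.46 to -0.85) in the DAXX-/- clone, -0.37 (-0.60 to -0.14) in the ATRX-/- clone and 0.78 (0.47 to 1.10) between the knockouts, and the DAXX interval reached inside 2-fold. The RNA-binding effectors were closer to wildtype. Adar, which edits adenosine in double-stranded RNA and keeps self RNA from the sensors, had 1189, 887 and 956 reads, with -0.01 in the DAXX-/- clone and -0.25 (-0.37 to -0.12) in the ATRX-/- clone. Eif2ak2, the kinase PKR that stops translation on binding double-stranded RNA, had 536, 340 and 462 reads, with -0.25 (-0.45 to -0.05) and -0.15. Ifit2 had 34, 33 and 32 reads, with 0.37 and -0.02. Adar overlaps Chrnb2 on the opposite strand, and no use of strand is stated for the counts.

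**Figure D3:**
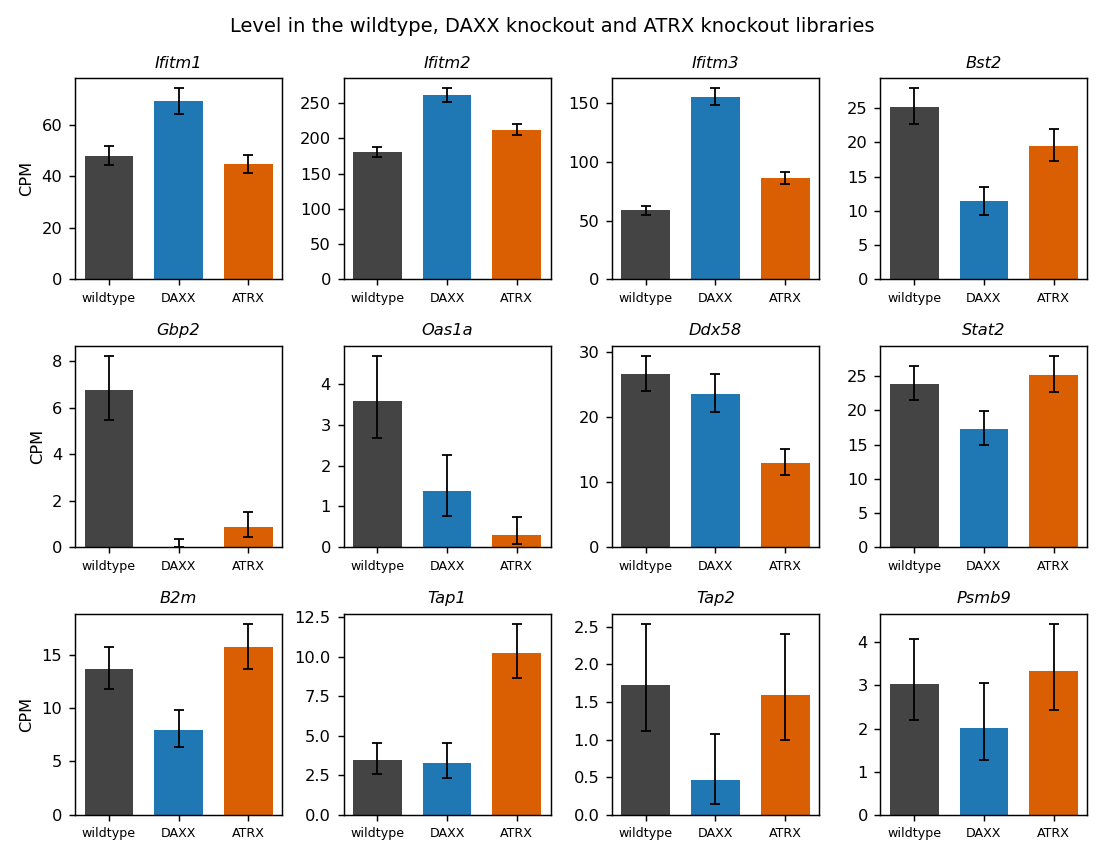
Level in CPM of 12 members in the 3 libraries; bars are single libraries and error bars exact 95% Poisson intervals of the reads, which cover counting error only. Ifitm1, Ifitm2 and Ifitm3 are highest in the DAXX-/- clone, Bst2, Stat2 and B2m lowest there, Tap1 is highest in the ATRX-/- clone, and Oas1a and Ddx58 are lowest there.

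The antigen presentation genes had their lowest level in the DAXX-/- clone, for Tap1 and Psmb9 within counting error of wildtype, and Tap1 rose in the ATRX-/- clone. Tap1 encodes a subunit of the transporter that carries peptides into the endoplasmic reticulum. It had 50 reads in wildtype, 36 in DAXX-/- and 142 in ATRX-/-. The ATRX-/- clone stood above the others, where Tap1 rose by 1.57 (1.10 to 2.07) against wildtype and by 1.64 (1.10 to 2.21) against the DAXX-/- clone, which was at -0.06 (-0.72 to 0.58). By transcript, the 2614-base form had 20, 14 and 64 reads and the 2953-base form 25, 19 and 72, both higher in the ATRX-/- clone. The 3 forms of Tap1 hold only 2997 distinct 50-base words together, so these 2 forms share most of their sequence. Their counts are therefore not separate support for the rise. If reads that match both forms were counted on each, the interval of the summed gene is too narrow. The short 587-base form had 5, 3 and 6 reads, too few to compare. With the most abundant transcript alone, the gene no longer passed the rule in the ATRX-/- clone, at 1.59 against wildtype and 1.58 against the DAXX-/- clone. Tap1 lies head to head with Psmb9, and their exons overlap by 212 bases on opposite strands. Whether reads there were separated by strand is not stated. Psmb9, an immunoproteasome subunit that shapes peptides for class I loading, had 44, 22 and 46 reads and log2 folds of -0.59 (-1.40 to 0.18) and 0.13. Psmb8, the subunit gene on the other side of Tap1, had 13, 0 and 1 reads, too few for the rule.

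B2m had 198 reads in wildtype, 87 in DAXX-/- and 217 in ATRX-/-, which left the DAXX-/- clone below both other libraries, at -0.78 (-1.16 to -0.41) against wildtype and with the ATRX-/- clone 0.98 (0.61 to 1.35) above it. Tap2, the partner of TAP1, had 25, 5 and 22 reads, with -1.91 (-3.65 to -0.50) in the DAXX-/- clone, -0.12 in the ATRX-/- clone and 1.80 (0.36 to 3.55) between them. Tapbp, or tapasin, which bridges the transporter to class I molecules, had 288, 171 and 238 reads, with -0.34 (-0.62 to -0.06) and -0.21 (-0.46 to 0.05). Its exons overlap Gm19412 by 295 bases on the opposite strand, and no use of strand is stated for the counts. All 5 measured genes of the group lay below wildtype in the DAXX-/- clone, and 3 of them, B2m, Tap2 and Tapbp, had their whole interval below 0. None of the 5 fell by the rule of size.

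The heavy chains that pair with B2m, from a list of 14 class I genes, gave 0 rises and 0 falls in either knockout, of 11 tested in the DAXX-/- and 10 in the ATRX-/- clone. Over all genes tested, 0.487% rose and 1.55% fell in the DAXX-/- clone, and 0.695% and 1.15% in the ATRX-/- clone. In the DAXX-/- clone 3 were lower by the milder rule (27.3%, against 17.1%) and 1 was higher (9.09%, against 23.7%). In the ATRX-/- clone 3 were lower (30.0%, against 21.3%) and 3 higher (30.0%, against 25.4%). The median of the 9 measured was -0.22 and -0.02. H2-K1 had 478 reads in wildtype, 247 in DAXX-/- and 533 in ATRX-/-, with -0.54 (-0.77 to -0.32) in the DAXX-/- clone and 0.23 (0.04 to 0.41) in the ATRX-/- clone, which placed the libraries in the same order as for B2m. H2-D1 had 261, 186 and 300 reads, with -0.08 (-0.36 to 0.20) and 0.27 (0.02 to 0.51). H2-Q6, a nonclassical class I gene, had 103, 139 and 164 reads and departed from that order, with 0.84 (0.46 to 1.22) and 0.74 (0.37 to 1.11), above wildtype in both knockouts. Class I genes are a family of near-identical copies that can exchange reads, so these values are uncertain. The class II genes, which present extracellular antigen and are normally confined to immune cells, were low, with a summed level of 8.89 CPM in wildtype, 3.75 in the DAXX-/- clone and 11.3 in the ATRX-/- clone. H2-Ab1, a class II beta chain, had 24 reads in wildtype, 7 in DAXX-/- and 62 in ATRX-/-. It was higher in the ATRX-/- than in the DAXX-/- clone by 2.80 (1.68 to 4.18), though neither knockout passed the rule against wildtype. The constitutive proteasome genes Psmb5, Psmb6 and Psmb7, whose subunits the immunoproteasome subunits replace, gave 0 rises and 0 falls. By the milder rule 1 of the 3, Psmb6, was lower in both knockouts (17.1% and 21.3% of all genes tested). Psmb5 and Psmb7 were higher in the DAXX-/- clone (23.7%), and 0 of the 3 in the ATRX-/- clone (25.4%). The 10 listed partners of class I loading also gave 0 rises and 0 falls. Of these, 9 were tested in the DAXX-/- and 10 in the ATRX-/- clone. Among them the chaperone Calr had 8490, 7375 and 10674 reads, with 0.21 (0.16 to 0.25) and 0.40 (0.36 to 0.44), and the chaperone Canx had 7454, 4514 and 6542, with -0.31 (-0.37 to -0.26) and -0.12 (-0.17 to -0.07). Pdia3, a disulfide isomerase of the loading complex, had 6555, 5060 and 7098 reads, with 0.04 (-0.02 to 0.09) and 0.18 (0.13 to 0.23). By the milder rule 6 of these 10 partners were lower in the ATRX-/- clone and 3 were higher (21.3% and 25.4% of all genes tested). The 6 lower were Canx, Erap1, Psmb10, Psme2, Psme3 and Tapbpl, and the 3 higher were Calr, Pdia3 and Psme1. Erap1 had 67, 37 and 20 reads. In the DAXX-/- clone 3 of 9 were lower (Canx, Psmb10 and Psme3), or 33.3% against 17.1% of all genes tested. The 2 that were higher there (Calr and Psme1) made 22.2%, near the 23.7% of all genes.

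Several of these genes lie on chromosome 17, which carries Daxx. The counted transcript of Tapbp starts 3.74 kb after the end of Daxx on chromosome 17, and Psmb9, Tap1, Psmb8 and Tap2 lie within 34.3 kb of each other (34181987 to 34216321) further along. Tap1 starts 278 kb and H2-Ab1 354 kb from the start of Daxx. Of the 36 measured genes within 500 kb on either side, 7 had their whole interval below 0 in the DAXX-/- clone (19.4%, against 17.1% of all genes tested) and 13 above it (36.1%, against 23.7%), with a median of 0.06. The share of lower genes was thus near that of all genes. These lower genes included Tapbp, H2-K1, H2-DMa, Tap2 and H2-Ab1, while between Tapbp and H2-K1 the intervals of Pfdn6, Rps18 and Vps52 lay above 0. Daxx itself, left out of these counts, was at -0.44 (-0.59 to -0.30). B2m lies on another chromosome, chromosome 2. In the ATRX-/- clone the median of the same genes was 0.06.

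**Figure D4:**
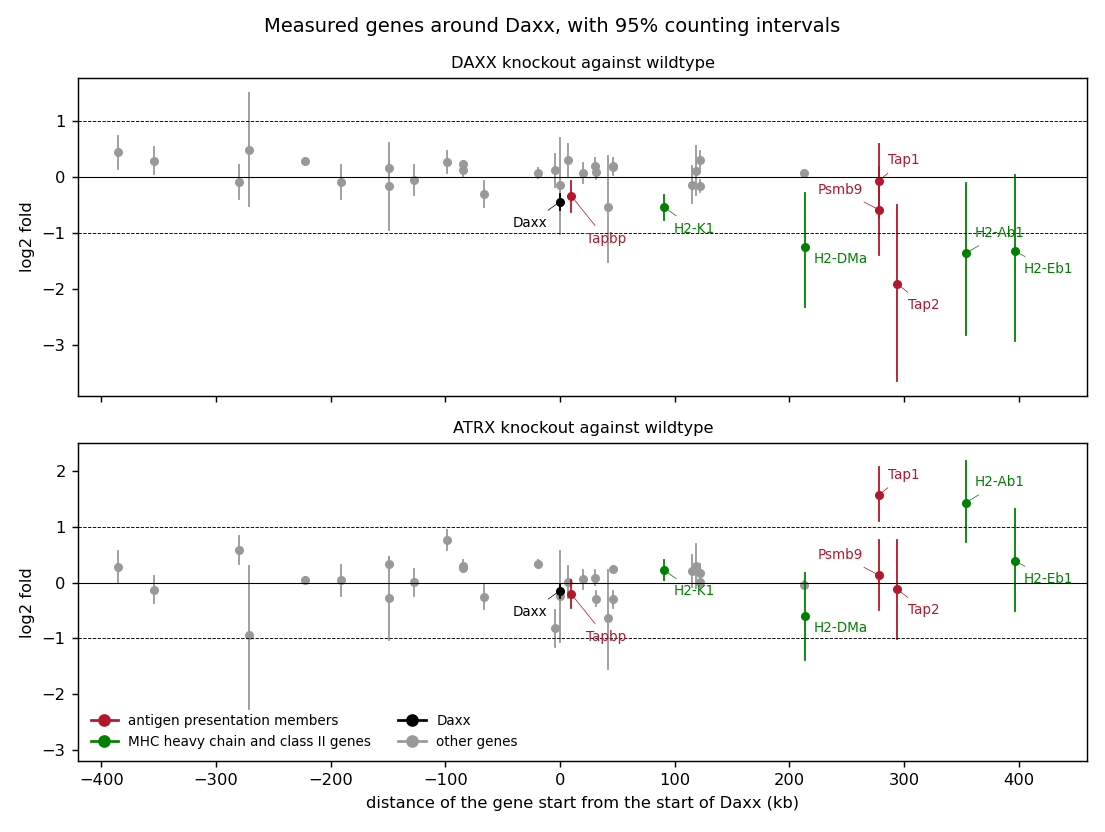
log2 fold against wildtype of measured genes near Daxx, by distance of each gene start from the start of Daxx in kb, in the DAXX-/- clone (top) and the ATRX-/- clone (bottom); lines are 95% counting intervals. In the upper panel the antigen presentation and MHC genes lie at or below 0 and grey neighbours scatter on both sides, and in the lower panel Tap1 and H2-Ab1 lie above 1.

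The wider pathway was read from 137 further genes. In the DAXX-/- clone 1 of 81 tested rose (1.23%, against 0.487% of all genes tested) and 4 fell (4.94%, against 1.55%). In the ATRX-/- clone 1 of 82 rose (1.22%, against 0.695%) and 5 fell (6.10%, against 1.15%). The gene that rose in both was Ube2l6, the conjugating enzyme for ISG15, with 31 reads in wildtype, 485 in DAXX-/- and 313 in ATRX-/-. Its log2 folds were 4.38 (3.85 to 4.95) and 3.40 (2.87 to 3.99). The rest of the ISG15 system did not share this pattern: Isg15 and Usp18 were at or near 0, the activating enzyme Uba7, picked for its role after values were seen, had 1, 0 and 0 reads, and the ligase Herc6 had 19, 2 and 1 and fell by 4.18 (-9.56 to -1.53) in the ATRX-/- clone. Tlr3, the endosomal sensor of double-stranded RNA, had 28, 3 and 5 reads and fell in both, with log2 folds of -2.81 (-5.17 to -1.12) and -2.42 (-4.15 to -1.03). Irgm1, a regulator of the immunity-related GTPases, had 42, 5 and 5 reads and also fell in both, with -2.66 (-4.36 to -1.32) and, in the ATRX-/- clone, an interval of -4.70 to -1.67.

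The remaining calls were in 1 knockout each. By the milder rule, Igtp and Ifnlr1 were lower in the ATRX-/- clone as well, and Oas1g and Herc6 in the DAXX-/- clone as well. Igtp, another immunity-related GTPase, had 61, 12 and 20 reads and fell by 1.94 (-2.96 to -1.03) in the DAXX-/- clone. Ifnlr1, the receptor subunit for interferon lambda, had 79, 15 and 38 reads and fell by 1.99 (-2.89 to -1.18) there. Oas1g had 61, 18 and 5 reads and fell by 3.54 (-5.21 to -2.24) in the ATRX-/- clone, with the uncertainty given for Oas1a. Lgals9, a secreted galectin, had 100, 129 and 28 reads and fell by 1.77 (-2.43 to -1.15) in the ATRX-/- clone, with 0.78 (0.39 to 1.17) in the DAXX-/- clone. None of the listed JAK kinases or their feedback inhibitors passed the rule against wildtype.

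Markers of some other cells also differed between the libraries, and their part in these results was not tested. Primitive and visceral endoderm markers, which arise in ESC cultures by differentiation, summed to 632 CPM in wildtype, 218 in the DAXX-/- clone and 366 in the ATRX-/- clone. Of 13 tested, 12 fell in the DAXX-/- clone (92.3%, against 1.55% of all genes tested) and 4 in the ATRX-/- clone (30.8%, against 1.15%). Markers of feeder fibroblasts summed to 45.4, 18.4 and 30.3 CPM. Of these, 4 of 8 tested fell in the DAXX-/- clone and 1 of 9 in the ATRX-/- clone, and Lum was at 0 in every library. Both lists were highest in wildtype and lowest in the DAXX-/- clone, and among the genes that fell, Gbp2, Igtp, Ifnlr1 and Tlr3 ran in the same order. Oas1a, Oas1g, Herc6, Irgm1 and Lgals9 did not, with their lowest level in the ATRX-/- clone, which for Herc6 and Irgm1 rests on at most 5 reads in either knockout. The order of Tlr3 likewise rests on at most 5 reads in either knockout. Igtp, with 12 and 20 reads there, did not differ between the knockouts by the milder rule. The 11 leukocyte markers summed to 93.2, 115 and 128 CPM, and 0 of the 5 tested rose or fell. Most of that sum was Laptm5, a lysosomal membrane protein, with 1126, 1076 and 1557 reads and log2 folds of 0.34 (0.22 to 0.47) and 0.54 (0.42 to 0.65). Csf1r had 56, 54 and 75 reads and Cd68 had 93, 88 and 91. Adgre1, Lyz2 and Tyrobp had 0 reads in every library, and Ptprc had 0, 0 and 1. The 12 ESC markers summed to 6491, 7156 and 7085 CPM, and 0 rose or fell.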

How the data were processed

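Per the labels' protocols, polyadenylated RNA was made into TruSeq libraries, and the submitters' processing notes name Bowtie 1.1.2, GRCm38.p4 and SAMtools. The deposited values are raw read counts per transcript for each library, in the layout of SAMtools idxstats. Strand use, annotation release and the handling of reads with several positions are not given in the sources used here. If a read was kept at several positions, sums over transcripts or genes count it more than once.

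Counts of a gene's transcripts were summed per symbol and scaled by TMM (edgeR 4.0.16 in R 4.3.3). Repeat sequences were left out. Each genotype had 1 library and 0 residual degrees of freedom, so no p-value was computed. Folds have exact conditional Clopper-Pearson 95% intervals (scipy 1.17.1), and a fold against 0 reads uses a floor of 3 reads. Medians, computed with a prior count of 1, cover genes whose mean reached 1 CPM. The calling rule was tested on simulated data with Poisson counting error only. Variation between clones and from PCR copies was not simulated, so the rule is untested against it. Positions and exon overlaps are from GENCODE M21 (GRCm38), which may not be the submitters' release. Transcript sequence was matched for 98.92% of counted transcripts, and 85.98% had the deposited length.

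All 39 members are named, with the other pathway genes that passed the rule in any comparison and, for lists with none, up to 3 genes of highest mean CPM. Other pathway genes (including the class I loading partners named by the milder rule), markers and neighbours of Daxx were picked after their values were seen. The members and lists were chosen with earlier results of these data known. Alternatives were other scalings (total counts, DESeq2 1.42.0 size factors), the most abundant transcript, other minimum levels, other prior counts and other fold rules.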

Additional observations from a re-analysis of the deposited data

Results flagged for a closer look

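In 3 genes the knockouts lay on opposite sides of wildtype and differed from each other by the rule of size. Each genotype had 1 library, so the difference between the knockouts was not tested. Tap1 was higher in the ATRX than in the DAXX knockout by 1.64 on the log2 scale, with the DAXX knockout within counting error of wildtype at -0.06 (-0.72 to 0.58). H2-Ab1, with 24, 7 and 62 reads in wildtype, the DAXX knockout and the ATRX knockout, was higher in the ATRX knockout by 2.80. Lgals9, with 100, 129 and 28 reads, was lower there, at -2.55 (-3.19 to -1.95).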

How the results depend on the processing

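The counts of members that passed the rule rest on few genes. In the DAXX knockout the 1 member that fell became 3 with no minimum level (Gbp2, Gbp3 and Psmb8), 2 with an interval beyond 1.5-fold (Bst2 and Gbp2) and 4 by the point value alone (Bst2, Gbp2, Oas1a and Tap2). In the ATRX knockout the 1 that rose became 0 with the most abundant transcript. Between the knockouts, the 1 higher in the ATRX knockout became 2 with no minimum level (Gbp2 and Tap1), 0 with the most abundant transcript, 2 beyond 1.5-fold (B2m and Tap1) and 3 by the point value (Oasl1, Tap1 and Tap2), and the 0 lower became 2 beyond 1.5-fold (Ifitm3 and Oas1a) and 1 by the point value (Oas1a). The members' median ran from -0.27 to -0.06 in the DAXX knockout, from -0.17 to -0.10 in the ATRX knockout and from -0.13 to -0.10 between them. No paired analysis was possible because each genotype had 1 library. Members with few reads, such as Tap2 and Psmb8, have wide intervals at this depth.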
